A study of Mus musculus with 4 samples.

Results

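The receptors described are CD94 (Klrd1), the NKG2 chains NKG2A (Klrc1), NKG2C (Klrc2) and NKG2D (Klrk1), and the related lectin-like receptors Klre1 and Klri2. These are 6 of 22180 genes with a probe set of their own, each read by 1 probe set that carries the gene's symbol alone. They were chosen by their symbols after their lower values in CD4-Vα14Tg cells were known, so their differences between the genotypes are given as a description and without a test. In invariant natural killer T (iNKT) cells of CD4-Vα14Tg mice all 6 read lower than in cells of wild-type (WT) mice, by 2.37-fold for Klrk1 to 7.95-fold for Klre1, and both transgenic arrays lay below both WT arrays for each of them, as they did for 23.4% of all genes tested.

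The study measured 4 Affymetrix whole-transcript arrays of mouse iNKT cells, 2 of CD4-Vα14Tg mice and 2 of WT mice. The transgene encodes the Vα14 chain of the T cell receptor and is driven by the CD4 promoter, which is active in other T cells as well, and the comparison asks how iNKT transcription differs under it from that in WT controls. The labels name iNKT cells as the source but frozen tissue in the extraction, and give no strain, age, sex, organ or sorting gate. Whether the arrays of a group came from separate mice is not stated either, so the p-values measure only the spread between these arrays, which may be technical.

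CD94 is a lectin-like chain that reaches the cell surface as a partner of NKG2 chains. CD94 with NKG2A is an inhibitory receptor that carries ITIM motifs and recruits tyrosine phosphatases, while CD94 with NKG2C is an activating receptor that signals through the adaptor DAP12, and both bind the non-classical MHC molecule Qa-1. NKG2D does not pair with CD94: it forms a homodimer, signals through DAP10 and DAP12, and binds stress-induced ligands of the RAE-1, H60 and MULT1 families. KLRE1 pairs with KLRI1 to inhibit or with KLRI2 to activate. Natural killer (NK) cells, activated CD8 T cells and the interferon-γ-producing NKT1 subset of iNKT cells express many of these genes.

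Cells on all arrays carried the T cell and iNKT lineage genes. The deposited values are log2 RMA values, and Zbtb16, the gene of the lineage factor PLZF, read 11.3 and 11.4 in CD4-Vα14Tg and 11.1 and 11.1 in WT, with Cd3e between 11.95 and 12.45 on the 4 arrays. Of 9 measured iNKT markers, Il2rb was called lower and 8 did not pass the test. At an unadjusted limma p under 0.05, 2 of the 9 were lower and 1 higher. Besides Il2rb these were Cd44, with a log2 difference of -0.73 (limma adjusted p = 0.0550), and Slamf6, with 0.73 (limma adjusted p = 0.0603). The WT arrays correlated at 0.994 and the transgenic arrays at 0.993 over 23521 probe sets, against 0.987 to 0.989 between genotypes. Across 13602 genes tested with limma, 182 were called lower (1.34%) and 83 higher (0.61%) at an adjusted p under 0.05. Leaving out CD4-Vα14Tg replicate 1 gave 117 lower and 52 higher calls. Leaving out CD4-Vα14Tg replicate 2 gave 110 lower calls, and leaving out WT replicate 2 gave 101.

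The CD94 chain and both of its NKG2 partners read 4.69-fold to 5.10-fold lower in CD4-Vα14Tg cells. Klrd1 (probe set 17463567), the common partner, read 8.10 and 8.07 on the transgenic arrays and 10.2 and 10.5 on the WT arrays. The groups were thus more than 2 log2 units apart at their closest, with a gap of 2.07 between the highest transgenic and the lowest WT value. The difference of means was -2.23 ± 0.14 (log2, standard error from limma), which left 21.3% of the WT level. In bulk RNA, fewer cells that express a gene and less RNA per cell cannot be told apart.

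Klrc1 (probe set 17471598), the inhibitory partner NKG2A, read 6.78 and 6.83 in CD4-Vα14Tg and 9.09 and 9.12 in WT. It was among the steadiest of the receptor genes, with an SD of 0.04 in the transgenic and 0.03 in the WT group (n = 2 arrays each). The difference was -2.30 ± 0.11 on the log2 scale, or 4.93-fold.

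Klrc2 (probe set 17471586), the activating partner NKG2C, read 4.25 and 4.28 in CD4-Vα14Tg and 6.20 and 7.03 in WT. Its WT arrays were the farthest apart of any of the 6 genes (SD 0.58), and both stood above both transgenic values, with a closest gap of 1.92. The difference was -2.35 ± 0.25, or 5.10-fold. Both transgenic values lay under the 40th percentile of their arrays, near 4.68, which served as the limit for dim genes. Klrc2 therefore entered the set of genes tested through its WT arrays alone, and its fold is set against a level at background.

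The inhibitory and the activating CD94 partner could not be ordered by the size of their difference. The log2 differences of Klrd1, Klrc1 and Klrc2 spanned -2.35 to -2.23, less than the standard error of Klrc2 alone. When 1 array was left out at a time, Klrd1 ranged from -2.38 to -2.08, Klrc1 from -2.33 to -2.28 and Klrc2 from -2.76 to -1.94. The ranges overlapped, so no order among the 3 can be read.

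Klrk1 (probe set 17471565), which encodes NKG2D, read 8.46 and 8.72 in CD4-Vα14Tg and 9.73 and 9.93 in WT. The groups did not overlap and their closest values were 1.01 apart. The difference was -1.24 ± 0.14, or 2.37-fold, which left 42.3% of the WT level. This was the smallest difference of the 6 genes: it ran from -1.37 to -1.11 with 1 array left out, while no other member came closer to 0 than -1.82. Differences of probes at unlike brightness are compressed to unlike degrees, and how far that sets this order was not tested.

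Klre1 (probe set 17463557) read 4.85 and 4.95 in CD4-Vα14Tg and 7.70 and 8.09 in WT. At -2.99 ± 0.16 on the log2 scale it had the largest measured difference of the 6, and 12.6% of the WT level was left. That of Klrc2, set against background, may be understated, so their order is not settled. With 1 array left out the difference lay between -3.19 and -2.79. Its transgenic values were just above the limit for dim genes, so the fold may be understated.

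Klri2 (probe set 17471616), whose product is the activating partner of KLRE1, read 4.81 and 4.81 in CD4-Vα14Tg and 6.71 and 6.63 in WT. The difference was -1.86 ± 0.12, or 3.63-fold, with a range of -1.90 to -1.82 over the fits with 1 array left out. Here too the transgenic values were just above the limit for dim genes, and the fold may be understated. Klri1, the inhibitory partner, was below the filter, with 4.04 and 3.95 against 4.57 and 4.32, a difference of -0.45 that was not tested.

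**Figure D1:**
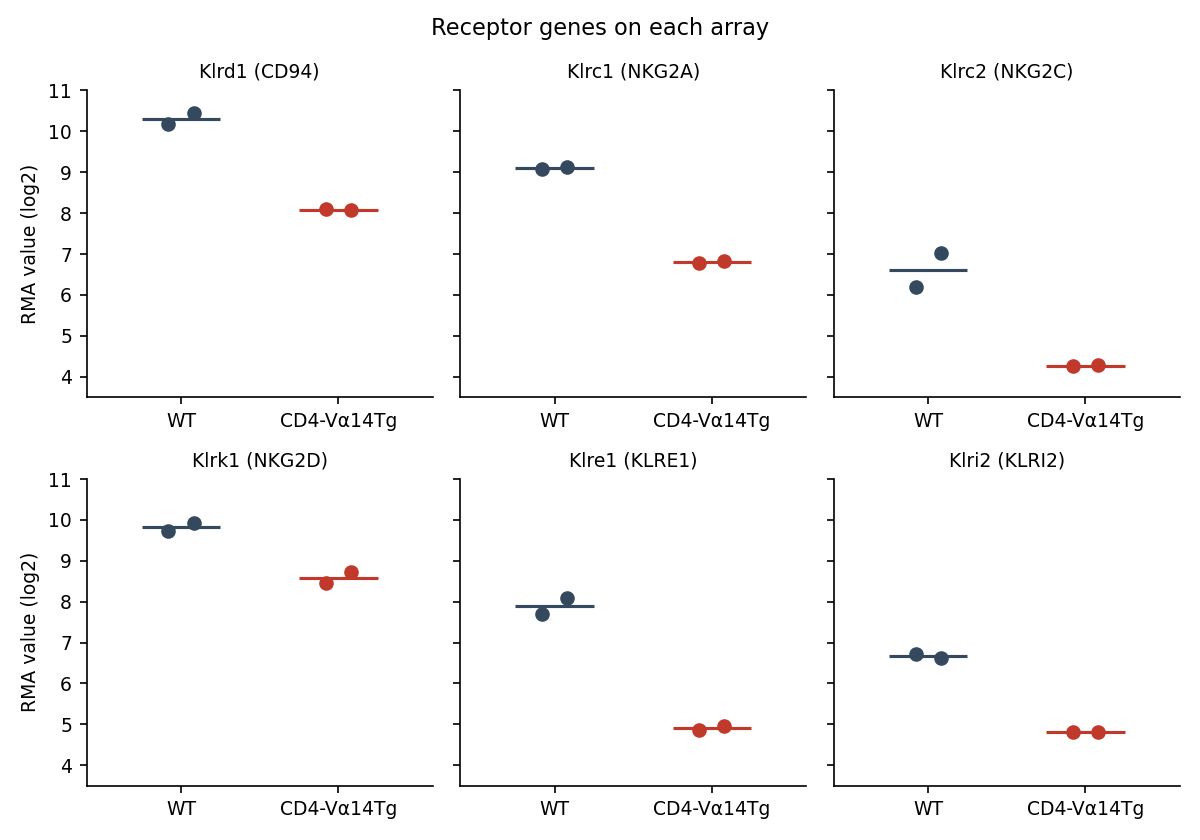
Deposited RMA values (log2) of the 6 receptor genes on each array, with WT in dark grey and CD4-Vα14Tg in red. Each point is 1 array and each line the mean of 2 arrays. In every panel both transgenic points lie below both WT points, and the WT points of Klrc2 are the farthest apart, at 6.20 and 7.03.

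Set beside all genes, the receptor genes stood at the lower end of the differences. Their median difference was -2.27, or 4.81-fold, against a median of -0.02 over the 13602 genes tested. Ranked by the size of the fall, Klre1 was number 5, Klrc2 10, Klrc1 12, Klrd1 13, Klri2 24 and Klrk1 66. All 6 were at least 2-fold lower, where 0.816% of genes tested were, and 4 of the 6 were at least 4-fold lower, among 17 genes of that size in all. All 6 had non-overlapping groups in this direction, against 23.4% of genes tested. The place of Klrc2 in this order and its count rest on transgenic values at background, so its difference may be understated. Since the genes were chosen on this contrast, these counts describe the choice and support nothing beyond it.

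**Figure D2:**
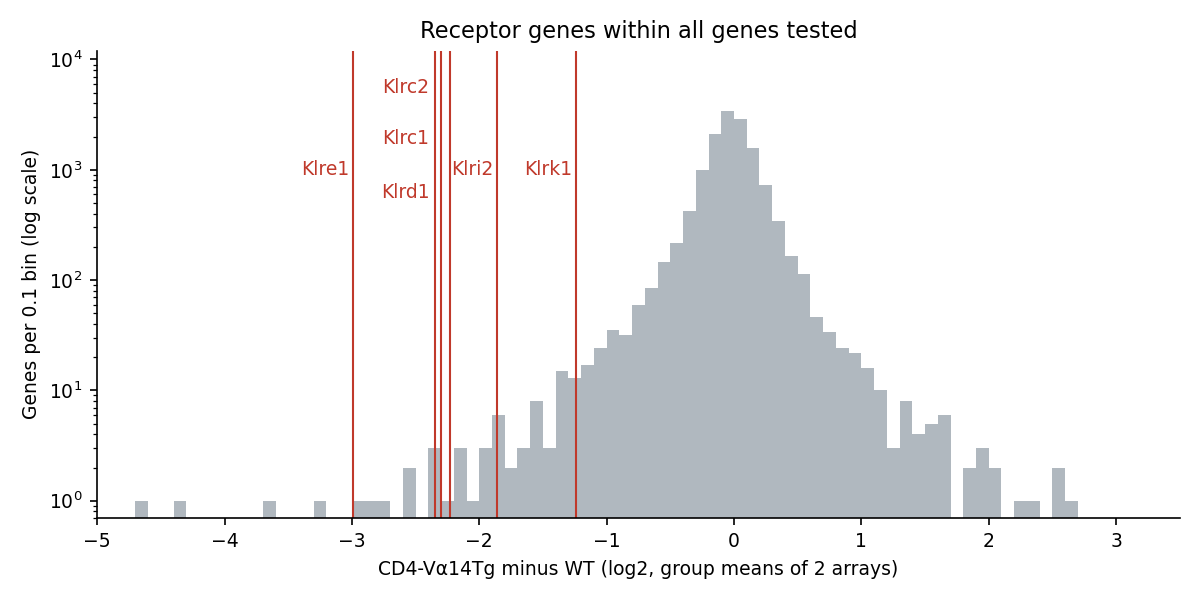
Histogram of the difference between group means (CD4-Vα14Tg minus WT, log2) for 13602 genes in bins of 0.1, with the gene count on a log axis. Red lines mark the 6 receptor genes, which run from -2.99 for Klre1 to -1.24 for Klrk1, to the left of the bulk of genes around 0.

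Of the 6 receptor genes, 4 had a smaller SD between the transgenic than between the WT arrays, while Klrk1 (SD 0.18 against 0.14) and Klrc1 (0.04 against 0.03) went the other way. The median SD of the 6 was 0.03 in CD4-Vα14Tg and 0.17 in WT, against 0.10 and 0.10 over all genes tested. Each SD rests on 2 arrays. The transgenic values of Klrc2 lay under the limit for dim genes, and those of Klre1 and Klri2 just above it. Differences between dim readings are compressed, and how far this sets the smaller transgenic SD was not tested. WT replicate 2 read higher than WT replicate 1 for 5 of the 6, by 0.04 for Klrc1 to 0.83 for Klrc2, while Klri2 read 0.08 lower there. Over all genes tested the median of WT replicate 2 minus WT replicate 1 was 0.03. Rises and falls cancel in this signed value, so it does not measure the usual gap. Without WT replicate 2 the median difference of the 6 became -2.01.

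The 6 genes lie in 1 neighbourhood of chromosome 6, the NK gene complex, in the order Klre1, Klrd1, Klrk1, Klrc2, Klrc1 and Klri2 in the RefSeq annotation of GRCm38.p6. Among genes with a probe set of their own, 9 lie from the first to the last of them. The 3 that are no members were Klrc3, a further NKG2 gene, Klri1 and the microRNA gene Mir680-1. Klrc3 read 2.73 and 2.84 in CD4-Vα14Tg and 3.81 and 4.96 in WT, a log2 difference of -1.61 at a level below the filter, where it was not tested. Mir680-1 passed the filter and differed by -0.05 (limma adjusted p = 0.966).

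On the Klre1 side, the first 12 genes held 4 that were bright enough to test, and none of these was called by limma, with 1 at an unadjusted p under 0.05. Gabarapl1, the nearest and an autophagy gene, differed by -0.58 (limma adjusted p = 0.474), and Cd69, an activation antigen, by -0.39 (limma adjusted p = 0.361). On the Klri2 side, 4 of 6 tested genes among the first 12 were called lower, and all 6 read lower at an unadjusted p under 0.05. Those called were the Ly49 receptor genes Klra5 and Klra9, the pseudogene Klra14-ps and the kinase gene Styk1. Ybx3 had -0.64 without passing (limma adjusted p = 0.0552). Klra5 read 5.75 and 5.92 against 10.3 and 10.6, a difference of -4.66 (limma adjusted p = 8.42e-05). Styk1 differed by -1.89 (limma adjusted p = 0.00242), and Klra6, another Ly49 gene with WT values of 6.05 and 7.46, by -1.76 without passing (limma adjusted p = 0.0906, with 0.00134 when WT replicate 1 and 0.0476 when WT replicate 2 was left out). Klra14-ps had -1.04 (limma adjusted p = 0.0259) and did not pass without CD4-Vα14Tg replicate 1 (0.0824) or WT replicate 1 (0.0836). Both transgenic values of Klra14-ps lay under the limit for dim genes, so it entered the test through its WT arrays alone. The neighbours were picked for their position after the values had been seen, and Ly49 genes are near-identical copies whose probes can read each other's transcripts.

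**Figure D3:**
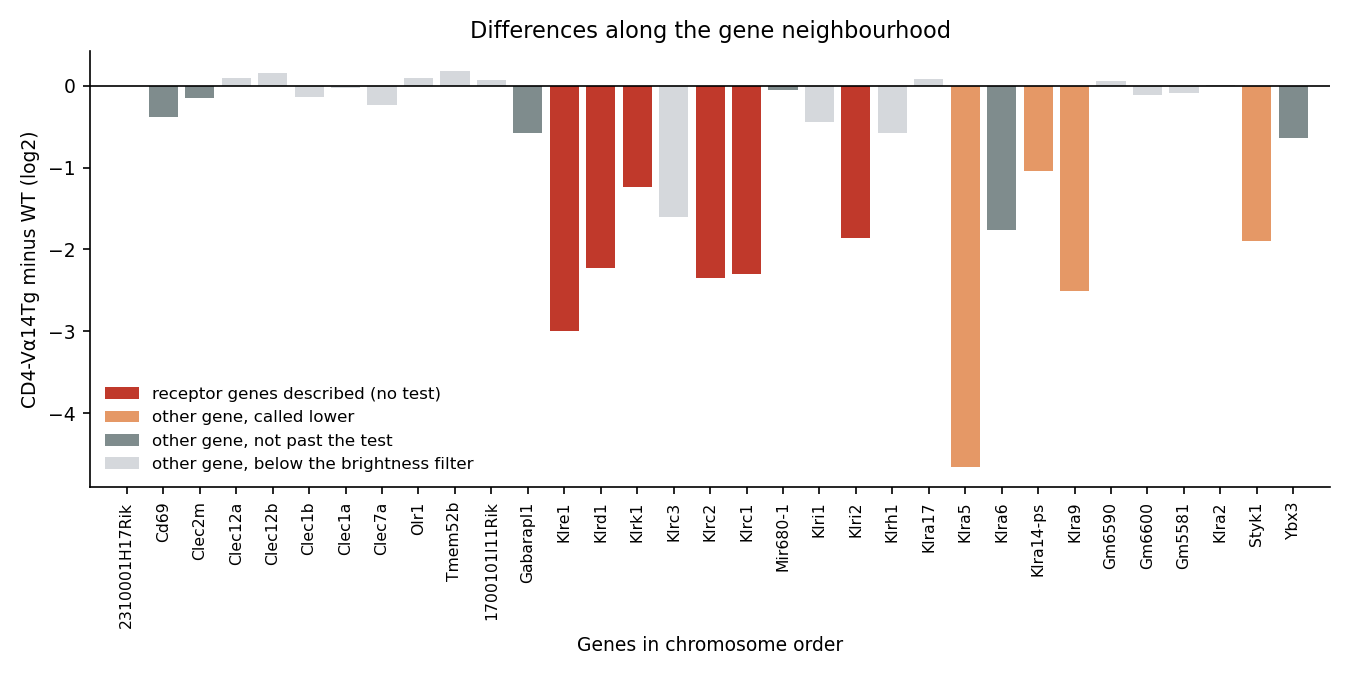
Differences between genotypes (CD4-Vα14Tg minus WT, log2) of genes with a probe set of their own, in chromosome order, from 12 genes before Klre1 to 12 after Klri2. Red bars are the 6 receptor genes (no test), orange bars other genes called lower, dark grey bars genes that did not pass and light grey bars genes below the brightness filter. Bars before Klre1 stay between -0.58 and 0.18, while Klra5 on the other side reaches -4.66.

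Promoter sequences are shown because the genes read lower together and lie side by side. RefSeq windows of GRCm38.p6, from 250 bases before to 50 after a transcription start, were at hand for 4 of the 6 genes: Klrc1 at chr6:129678924-129679223 (minus strand), Klrc2 at chr6:129660507-129660806 (minus strand, the second of 2 listed starts), Klrk1 at chr6:129623815-129624114 (minus strand) and Klre1 at chr6:129577963-129578262 (plus strand, the first of 2 listed starts). The window of Klrc3 at chr6:129643239-129643538 (minus strand) is added to show its likeness to Klrc2. Capitals mark TGTGGT or its reverse complement ACCACA, the core bound by RUNX factors, and each sequence runs 5′ to 3′ on the gene's strand.
Klrc1: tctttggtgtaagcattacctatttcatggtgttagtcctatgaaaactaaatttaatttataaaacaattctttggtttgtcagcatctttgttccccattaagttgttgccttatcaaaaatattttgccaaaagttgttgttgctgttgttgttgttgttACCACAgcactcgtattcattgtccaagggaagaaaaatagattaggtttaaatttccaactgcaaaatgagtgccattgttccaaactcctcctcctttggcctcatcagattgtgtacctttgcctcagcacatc
Klrc2: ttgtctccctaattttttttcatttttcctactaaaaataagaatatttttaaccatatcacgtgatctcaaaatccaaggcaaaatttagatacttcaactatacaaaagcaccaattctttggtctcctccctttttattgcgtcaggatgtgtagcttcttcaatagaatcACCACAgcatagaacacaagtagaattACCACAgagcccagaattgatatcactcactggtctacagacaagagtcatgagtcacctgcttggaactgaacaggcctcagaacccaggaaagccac
Klrc3: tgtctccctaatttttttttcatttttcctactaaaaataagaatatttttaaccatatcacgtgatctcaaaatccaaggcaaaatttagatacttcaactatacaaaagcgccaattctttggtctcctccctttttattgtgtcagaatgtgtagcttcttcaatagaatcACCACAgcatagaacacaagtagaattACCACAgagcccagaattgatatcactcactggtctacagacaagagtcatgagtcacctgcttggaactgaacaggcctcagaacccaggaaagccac
Klrk1: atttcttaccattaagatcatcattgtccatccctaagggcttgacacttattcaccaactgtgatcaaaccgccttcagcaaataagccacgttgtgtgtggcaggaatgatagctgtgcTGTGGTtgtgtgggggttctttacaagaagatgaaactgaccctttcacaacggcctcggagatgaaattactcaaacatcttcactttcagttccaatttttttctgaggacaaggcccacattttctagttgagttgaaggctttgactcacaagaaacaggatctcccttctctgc
Klre1: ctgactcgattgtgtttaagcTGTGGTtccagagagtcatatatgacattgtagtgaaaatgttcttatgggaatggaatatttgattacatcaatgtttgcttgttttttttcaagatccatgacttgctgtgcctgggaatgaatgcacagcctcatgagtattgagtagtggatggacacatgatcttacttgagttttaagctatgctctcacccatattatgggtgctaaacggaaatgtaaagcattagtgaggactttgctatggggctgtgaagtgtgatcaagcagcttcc

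The RUNX core was present in at least 1 window of all 4 genes and in 5 of their 6 windows, where 16.8% of 32851 RefSeq windows of 300 bases hold it. Both windows of Klrc2 overlap and hold the same pair of matches, so they are not separate counts. The exception was the second window of Klre1. Among neighbours also searched, the window of Klrc3 held the core and that of Klri1 did not. The share of 16.8% counts windows and not genes. Windows of different members were partly alike, with 120 of 166 aligned bases identical for Klrc1 and the Klrc2 window shown. They may therefore not be separate counts either. The match began 87 bases before the start in Klrc1, 129 in Klrk1 and 229 in Klre1. Klrc2 had a pair of matches, 76 and 49 bases before the start shown. The T-box core AGGTGT, the ETS core GGAAGT and the STAT motif TTCNNNGAA, searched on both strands, had no match in the 6 windows; 13.7%, 23.8% and 8.3% of all windows hold them. These letters are a description of short windows and not evidence of binding.

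The windows of Klrc2 and Klrc3 were near copies, with 296 of 299 aligned bases identical. Probe sets of such copies can share signal where their transcripts are alike too, so the values of Klrc2 and Klrc3 are uncertain as readings of 1 gene each. The WT arrays of both had replicate 2 above replicate 1. The direction held for 5 of the 6 receptor genes, so it is not particular to these copies. The spread was wider in the copies, with a WT SD of 0.58 for Klrc2 and 0.81 for Klrc3. Klre1 had the next largest WT SD of the 6, at 0.28. Whether shared signal has a part in this was not tested.

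Some other lectin-like receptors of the same family were lower in CD4-Vα14Tg cells too. Limma called 5 of 11 tested genes lower, 6 did not pass, and the median log2 difference was -0.99. Besides Klra5 and Klra9, these were 3 NKR-P1 genes. Klrb1b, an inhibitory receptor, read 4.81 and 4.81 against 6.31 and 6.63, a fall of 3.15-fold (limma adjusted p = 0.00288). The gene of NK1.1, Klrb1c, read 6.39 and 6.53 against 7.83 and 7.98 (2.72-fold, limma adjusted p = 0.00326). Klrb1f fell 1.98-fold (limma adjusted p = 0.0262), but leaving out CD4-Vα14Tg replicate 1 (adjusted p = 0.0915) or WT replicate 2 (0.105) ended the call. Klrg1, an inhibitory receptor of terminally differentiated cells, was below the filter at 4.31 to 4.38 on all arrays.

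Among adaptors of the activating receptors, 1 gene was called. Of 21 adaptor and signalling genes tested, Fcer1g, the Fc receptor γ chain, fell 2.46-fold, from 10.1 and 9.92 in WT to 8.87 and 8.57 (limma adjusted p = 0.00823), and 20 did not pass. Tyrobp, which encodes DAP12, the adaptor of NKG2C, read 5.46 and 5.30 against 5.81 and 6.15, a log2 difference of -0.60 (limma adjusted p = 0.126). Hcst, which encodes DAP10, the adaptor of NKG2D, read 7.93 on average in CD4-Vα14Tg against 8.44 in WT, a log2 difference of -0.50 (limma adjusted p = 0.144). Zap70, a kinase that binds phosphorylated ITAMs, had -0.26 (limma adjusted p = 0.504). At an unadjusted limma p under 0.05 there were 3 of the 21, all lower, namely Fcer1g, Tyrobp and Hcst. The median of the list was -0.03, close to that of all genes.

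Genes of the inhibitory pathway downstream of NKG2A showed no call by limma among 12 tested, with 1 at an unadjusted p under 0.05. That gene was Ptpn6, which encodes the phosphatase SHP-1, at 10.5 against 10.9 (log2 difference -0.40, limma adjusted p = 0.236). Inpp5d, the SHIP-1 gene, had -0.15 (limma adjusted p = 0.766), and the adaptor gene Dok1 and the kinase gene Abl1 had -0.26 and -0.15 (limma adjusted p = 0.504 and 0.757). The median was -0.09.

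Of the ligand genes, 6 could be tested. H2-T23, which encodes the CD94 ligand Qa-1, read 8.26 to 8.63 on the 4 arrays, with a log2 difference of -0.24 (limma adjusted p = 0.574). The NKG2D ligand genes H60b and Ulbp1 had -0.58 (limma adjusted p = 0.118) and 0.07. Cd1d1, which presents lipids to iNKT cells, had 0.54 (limma adjusted p = 0.150). H2-K1, a classical MHC class I gene, fell 1.58-fold (limma adjusted p = 0.0438). Its adjusted p was 0.111 to 0.169 with 1 array left out, 0.0553 unfiltered and 0.0556 after a repeat of quantile normalization, so none of these kept the call. The RAE-1 genes had no probe set named with 1 of them alone.

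Transcription factors of NK and NKT1 cells were split. Limma called Tbx21, Runx3 and Irf8 lower and Lef1 higher, 18 of 22 tested genes did not pass, and the median was -0.04. At an unadjusted limma p under 0.05 there were 11 of the 22, 7 lower and 4 higher. Tbx21, the gene of T-bet, fell 2.62-fold (limma adjusted p = 0.00819). Runx3, a RUNX factor of cytotoxic cells, read 6.95 and 7.39 against 8.37 and 8.54, a fall of 2.44-fold (limma adjusted p = 0.0130, and 0.0499 without WT replicate 2). Runx1, another RUNX factor, had a positive difference of 0.53 that did not pass. Irf8 fell 1.69-fold (limma adjusted p = 0.0310) but did not pass when an array was left out (0.0636 to 0.126) or its probe sets were averaged (0.254). Lef1, a T cell factor of naive cells, rose 1.79-fold (limma adjusted p = 0.0172) but did not pass without CD4-Vα14Tg replicate 1 (0.0733), its replicate 2 (0.0633) or WT replicate 1 (0.0705). Eomes, a T-box factor of NK cells, was below the filter at 4.04 to 4.40 on all arrays.

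Interleukin-15, read through the receptor chain CD122, sustains cells that carry these receptors. Of 11 genes of this pathway tested, Il2rb, the gene of CD122, fell 1.74-fold, from 11.3 and 11.5 to 10.5 and 10.7 (limma adjusted p = 0.0427), while 10 did not pass and the median was -0.29. Its adjusted p was 0.0591 to 0.179 with 1 array left out, 0.0575 unfiltered and 0.0674 after a repeat of quantile normalization, past the threshold in none of them. Socs2, a feedback inhibitor of cytokine signals, had -0.94 (limma adjusted p = 0.0586), and from -1.19 to -0.69 with 1 array left out. With its probe sets averaged Socs2 had -0.546 (limma adjusted p = 0.123). Bcl2 had -0.77 (limma adjusted p = 0.191) and Socs1 -0.49 (limma adjusted p = 0.143).

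NK receptors outside the lectin-like family also read lower in part. Among 16 tested, 4 were called lower, Itgam higher and 11 did not pass, and the median was -0.26. Slamf7 read 8.13 and 8.43 against 10.0 and 10.4 (3.85-fold, limma adjusted p = 0.00326). Cd244a, the gene of 2B4, read 5.13 and 4.92 against 6.40 and 6.47 (2.66-fold, limma adjusted p = 0.00326). Ncr1, the gene of NKp46, entered the test through its WT arrays alone, with both transgenic values under the limit for dim genes. Set against that background, Ncr1 read 4.19 and 4.20 against 5.05 and 5.14 (1.87-fold, limma adjusted p = 0.0122). It did not pass without CD4-Vα14Tg replicate 1 (0.0542), its replicate 2 (0.0524) or WT replicate 2 (0.0636). Cd7 fell 1.93-fold (limma adjusted p = 0.0178), with 0.0740 when CD4-Vα14Tg replicate 1 and 0.0817 when WT replicate 2 was left out. Itgam rose 1.59-fold (limma adjusted p = 0.0438) and did not pass when an array was left out (0.0842 to 0.206) or no filter was set (0.0553). The list held 2 calls without CD4-Vα14Tg replicate 1, 3 without its replicate 2 and 2 without WT replicate 2.

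**Figure D4:**
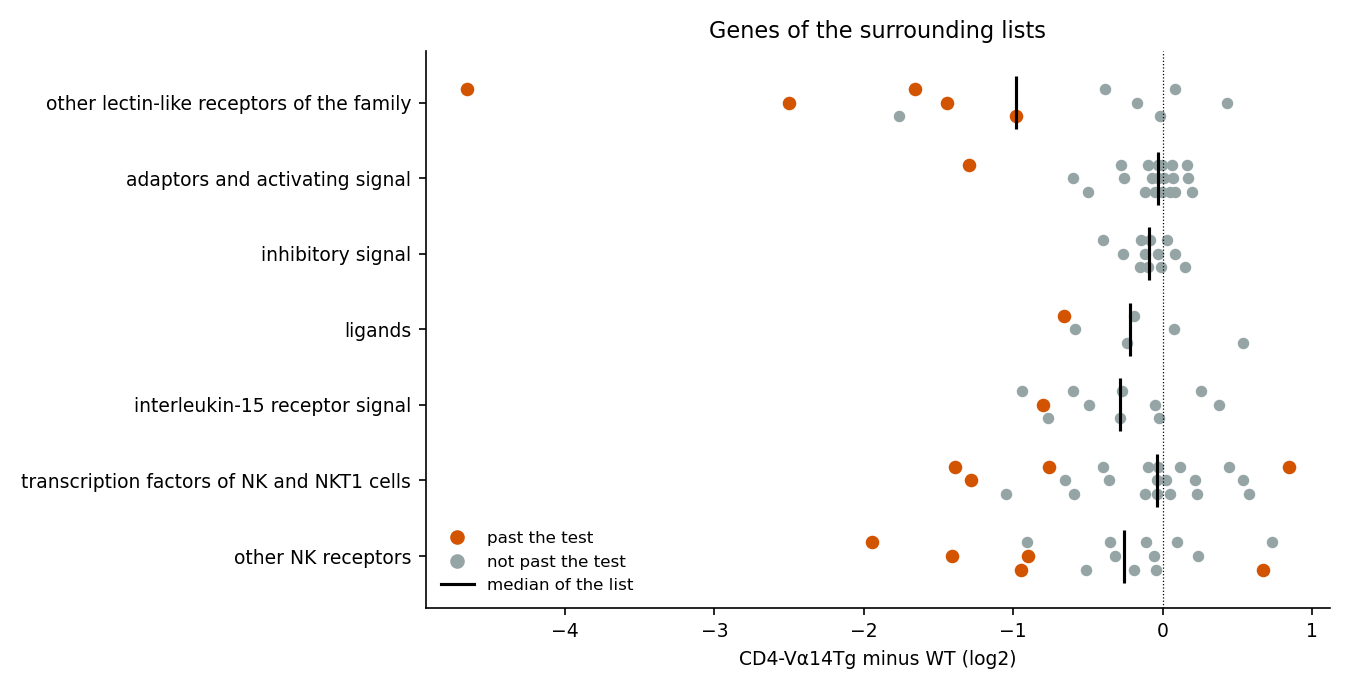
Differences between genotypes (CD4-Vα14Tg minus WT, log2) of the tested genes in 7 lists around the receptors. Each point is 1 gene, orange where it passed limma's test, and the black line is the list's median. The lectin-like receptors have a median of -0.99, while the adaptor list lies around -0.03 with Fcer1g apart at -1.30.

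Markers of NK cells, which express all of these receptors, moved partly with them. Of 10 NK cell markers with a probe set, 8 were bright enough to test: Ncr1, Fcer1g and Irf8 were called lower, Itgam higher and 4 did not pass. At an unadjusted limma p under 0.05, 5 of the 8 were lower and 1 higher. The limits given above for the calls of Ncr1, Irf8 and Itgam hold here too. The summed log2 values of the 10 markers were 54.6 to 55.0 in CD4-Vα14Tg and 58.3 to 58.5 in WT. Some of these genes stand in the lists above too. Eomes and Cma1 lay below the filter in both genotypes, and Itga2, the CD49b gene, read 7.45 to 7.81 on the arrays with a difference of -0.19 (limma adjusted p = 0.691). The part of NK cells in the lower receptor values was not tested.

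Markers of CD8 and naive T cells stood in part on the other side: 3 of 5 tested were called higher, Ccr7, Lef1 and Igfbp4. The limits given above for the call of Lef1 hold here too. The summed log2 values of the 6 with a probe set, Cd8a and Cd8b1 among them, were 49.11 to 49.12 in CD4-Vα14Tg against 44.0 to 44.7 in WT. Cd8a lay below the filter on all arrays and Cd8b1 differed by -0.09. B cell, myeloid, erythroid and platelet, and hepatocyte markers were mostly below the filter, in 5 of 7, 9 of 11, 2 of 3 and 4 of 6 genes. None of their tested genes was called by limma, with 2 B cell, 1 myeloid, 0 erythroid or platelet and 0 hepatocyte genes at an unadjusted p under 0.05, nor was either of the 2 γδ T cell markers, with 1 at such a p. The part of other cells in the lower receptor values was not tested.

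Genes whose pattern over the 4 arrays was most like that of the receptor genes were sought among 12144 others with an established symbol. Likeness was the Euclidean distance between a gene's log2 values, centred on their own mean, and the mean of the 6 centred receptor profiles. The nearest was Cdh1, the E-cadherin gene, at a distance of 0.20, followed by the adaptor gene Clnk at 0.21, the integrin α1 gene Itga1 at 0.27, Samd3 at 0.28, Slamf7 at 0.29 and Entpd1, the gene of the ectoenzyme CD39, at 0.29. The median distance of all genes compared was 2.16, and those of the receptor genes themselves ran from 0.10 for Klrd1 to 0.93 for Klrk1. Cdh1 read 6.41 and 6.61 in CD4-Vα14Tg and 8.69 and 8.72 in WT, a log2 difference of -2.20. With its probe sets averaged the difference was -1.3, so its place as the nearest rests on the brightest probe set. With 4 arrays in 2 groups, likeness is mostly a like size of difference between the genotypes.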

How the data were processed

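Each array carried biotin-labelled cRNA from total RNA of iNKT cells. Per the submitters' processing notes the authors made the deposited log2 values, 1 per probe set and array, with RMA and Affymetrix Power Tools. No version, option or genome build is given in these notes or the labels. RMA's quantile normalization hides a shift in total RNA, and dim probe sets compress differences. Arrays give no read depth, so their number, 2 a group, limits the precision. Probe sets with 1 platform symbol (23521 of 41345) were used, 1814 with several and 16010 without one were not. The brightest probe set stood for a gene. Genes at or above the 40th percentile on at least 2 arrays were tested across the table with limma 3.58.1 in R 4.3.3 (lmFit, eBayes, two-sided, Benjamini-Hochberg), which was checked on simulated data. Tables were made with Python 3.11.15, pandas 2.3.3 and Biopython 1.88. Each fold is 2 raised to the log2 difference.

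The members, lists and motifs were chosen with earlier results of these data known. Named were all members, every called gene and up to 4 genes of each list by absolute moderated t, and the 6 genes nearest in profile, unnamed gene models and small RNAs left out. Neighbours of the receptor genes were added after the values were seen, and other genes given with their values beside these illustrate a list. Alternatives were other filters, normalizations, probe set rules and variance models, the replicate number as a block, and each array left out.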

Additional observations from a re-analysis of the deposited data

How the results depend on the processing

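All 6 receptor genes kept a negative difference with arrays left out, quantile normalization repeated, medians centred or probe sets averaged. Their median ranged from -2.35 to -2.01 with 1 array left out and from -2.27 to -2.22 under the other 3 settings. Replicate numbers name arrays only, and the labels do not say that they pair them; the deviations of arrays with the same number correlated at 0.262 over 13602 genes. With the replicate number as a block (replicate block), 422 genes were called lower and 252 higher, and the calls were 3 in the ligand list, 3 in the interleukin-15 list, 9 among transcription factors and 8 among other NK receptors. With no filter, and with quantile normalization repeated, the ligand and interleukin-15 lists had 0 calls by limma, against 1 call each in the main setting. At an unadjusted limma p under 0.05 the main setting had 3 ligand and 6 interleukin-15 genes. The interleukin-15 list had 2 calls with the 60th percentile filter and 2 with the trend and robust options. With 1 array left out, where the lone array of a group is assumed to vary like the others, lower calls ranged from 101 to 147 and higher calls from 52 to 74. List calls then ranged from 0 to 0 for ligands, 0 to 1 for interleukin-15, 2 to 3 for transcription factors and 2 to 5 for other NK receptors. Of 49 genes outside the 6 that were followed under these alternatives, 3 changed direction, none of them called. With 1 array left out the log2 difference ranged from -0.1585 to 0.0625 for Mir680-1, from -0.0345 to 0.1805 for Ulbp1 and from -0.2275 to 0.0575 for Cd8b1.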
